A study of Mus musculus with 2 samples.

Results

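Small nucleolar RNAs (snoRNAs) were examined on a pair of Affymetrix microarrays of cortical thymic epithelial cells (cTECs) from NOD mice, a diabetes-prone strain. One array held cTEC RNA of mice with an Aire transgene (Tg), the other that of control mice (non-Tg). The transgene is a semi-knockin that places Aire, the transcriptional regulator of medullary epithelium, under the promoter of β5t, a proteasome subunit made in the cortex. Both groups were NOD mice at day 7, and the source labels name 7 Tg and 5 non-Tg, read here as mice pooled for each array. The snoRNA probe sets were those whose platform symbol starts with Snord or Snora followed by a digit, among the 21789 probe sets with a single gene symbol. The rule found 56 probe sets of 51 genes, which were 33 probe sets of 31 Snord genes and 23 probe sets of 20 Snora genes. The rule itself uses no measured value, though it was chosen with earlier results of these data known. Each group had 1 array, so no difference below has a replicate check and no p-value was computed.

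SnoRNAs are short noncoding RNAs that work in the nucleolus, where ribosomal RNA is made and trimmed. The C/D class, named Snord, binds the methyltransferase fibrillarin and guides methylation of ribose on ribosomal RNA. The H/ACA class, named Snora, binds dyskerin and guides the conversion of uridine to pseudouridine. A few members of both classes are needed for cleavage of the precursor ribosomal RNA rather than for its modification. Most mammalian snoRNAs have no promoter of their own: they lie in introns of host genes, often genes of ribosomal proteins or of noncoding host RNAs, and are trimmed from the excised intron. A snoRNA and its host transcript therefore start at the same promoter, but the snoRNA accumulates only if it is bound by its proteins.

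The values are deposited log2 levels, 1 per probe set and array. A probe set with a low level sits near the lower end of the scale, which was 4.22 on both arrays. For differences between the arrays, values under a floor of 4.80, the 25th percentile of all values, were raised to that floor. The filter on low values kept a probe set whose level reached its array's median, 5.43 for Tg or 5.45 for non-Tg, on either array. Calls were made by size: a probe set past the filter counts as higher or lower where the arrays were at least 2-fold apart, a log2 difference of 1. The error available is the SD of the log2 difference per probe set, 0.317, estimated from 595 genes read by at least 2 distinct probe sets. It leaves out variation between mice, pools and amplifications. Pairs of probe sets within 0.05 of each other on both arrays were left out. No snoRNA gene therefore entered this SD, and an error for snoRNA probe sets was not estimated.

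What a snoRNA probe set reads cannot be told from the labels. Its signal can come from the mature snoRNA, from the unspliced intron, or from a longer transcript that crosses it. The RNA was purified on a silica column of a type that recovers short RNAs poorly, and 400 pg was amplified. The RefSeq gene models of the Snord genes had a median length of 68 bases (range 45 to 148) and those of the Snora genes 125 bases (range 61 to 205).

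Markers of the labelled cell type were present on both arrays. All 10 cortical epithelial markers measured passed the filter, and their levels spanned 7.17 to 12.6 in Tg and 6.92 to 12.6 in non-Tg. Their median difference, Tg minus non-Tg, was 0.14, with 10 of 10 above 0. Thymocyte markers were present too, with 8 of 9 past the filter, a median difference of -0.07 and 7 of 9 below 0. Among medullary epithelial markers, a list that includes Aire, 4 of 5 passed, and the median difference was -0.05. Aire and the keratin gene Krt5, at 10.7 in Tg and 10.4 in non-Tg, were above 0. Tnfrsf11a, Fezf2 and Cd80 were below 0, with differences of -0.39, -0.08 and -0.05. Of the other lists, 1 of 3 B cell, 1 of 3 erythroid and 2 of 6 macrophage and dendritic cell markers passed. Fibroblast markers (3 of 4 past the filter, median difference 0.12) and endothelial markers (3 of 3, median -0.16) were measured as well. In these bulk samples fewer cells of a type and less RNA per cell cannot be told apart, and the part of other cell types in the snoRNA values was not tested. Aire itself had a level of 7.33 in Tg and 6.06 in non-Tg.

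Of the 56 snoRNA probe sets, 25 passed the filter, and 5 of those, from 4 genes, were 2-fold or more apart. Snord15b and Snord104 were higher on the Tg array, and Snord61 and Snora3, the latter with both of its probe sets, were lower. As background, 12537 single-symbol probe sets passed the filter, and 0.885% of them were 2-fold higher in Tg, 0.479% were 2-fold lower, and 1.36% were apart in either direction. At 1.5-fold the snoRNAs had 6 probe sets higher and 6 lower of 25, against a background of 4.91% and 3.21%. The count has a limit: 12 of the 25 passed the filter on 1 array only, and such a probe set enters because it is high on one side. With a filter on the mean of both arrays, an alternative chosen after seeing the data, 18 snoRNA probe sets remained eligible and 5 of them were 2-fold apart, against 1.33% of all single-symbol probe sets.

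**Figure D1:**
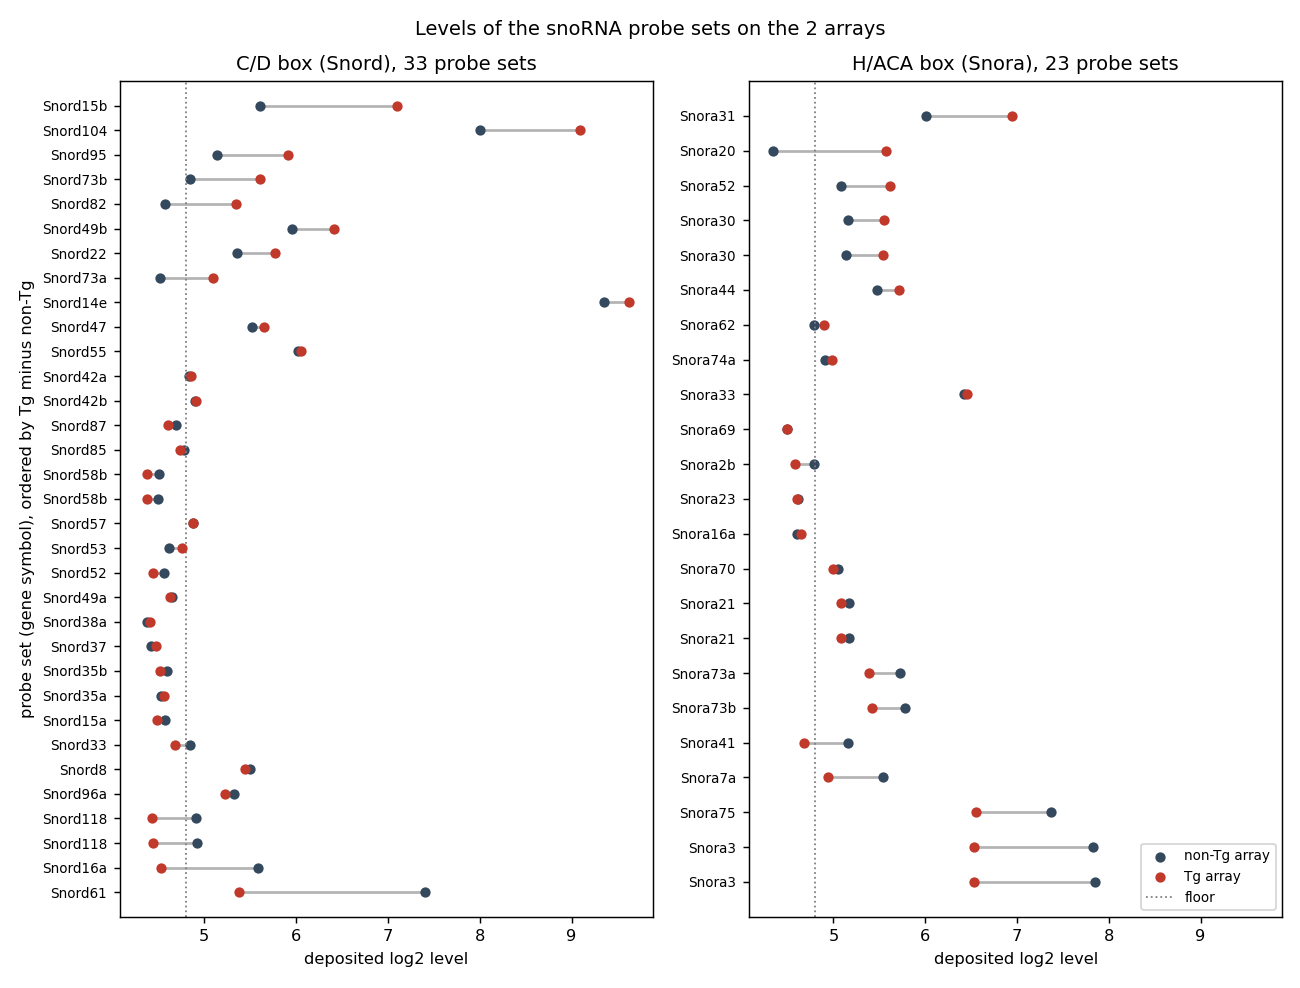
Deposited log2 level (x axis) of each of the 56 snoRNA probe sets (y axis, named by gene) on the non-Tg and Tg arrays, C/D class on the left and H/ACA class on the right. Points are single arrays with no error bar, the dotted line is the floor of 4.80, and the widest gaps are those of Snord61, Snord15b and Snora3.

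The host genes of the snoRNAs beyond 2-fold were found from RefSeq gene spans. The stretch around the annotated start of each is shown because an intronic snoRNA is transcribed from its host's start, if both lie on the same strand (not checked here), and because host genes of ribosomal proteins often begin in a run of C and T. Each sequence runs from 50 bases before the start to 20 bases after it, 5′ to 3′, from RefSeq (GRCm38.p6). Capitals mark the longest unbroken run of C or T that touches the 10 bases on either side of the start. Where several runs tie, the first is marked.
Rpl27a, host of Snora3, chr7:109519145-109519214, plus strand: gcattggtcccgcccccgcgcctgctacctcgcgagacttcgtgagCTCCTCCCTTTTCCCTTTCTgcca
Rps3, host of Snord15b, chr7:99483690-99483759, minus strand: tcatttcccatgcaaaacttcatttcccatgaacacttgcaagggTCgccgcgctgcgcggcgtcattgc
Rbmx, host of Snord61, chrX:57393017-57393086, minus strand: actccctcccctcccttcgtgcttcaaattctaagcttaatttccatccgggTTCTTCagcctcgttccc
Gm36220, host of Snord104, chr11:106500865-106500934, plus strand: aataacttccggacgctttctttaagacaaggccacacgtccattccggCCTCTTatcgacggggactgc

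The run at Rpl27a was 20 bases long, a length reached by 0.636% of the 32851 starts in the table. The runs at Rbmx and Gm36220 were each 6 bases long, which 29.2% of all starts reached, and that at the annotated start of Rps3 was 2 bases. Of the 32 annotated starts of snoRNA host genes, 21.9% had a run of at least 10 bases, against 6.97% of all starts. The hosts of Snora3 and Snord61, both lower in Tg, thus had runs of 20 and 6 bases. Those of Snord15b and Snord104, both higher in Tg, had runs of 2 and 6 bases. These 4 hosts were picked by the calls of their snoRNAs, and a link between run length and direction was not tested.

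Snord61, a C/D snoRNA from an intron of the X-linked gene Rbmx, had a level of 5.38 on the Tg array and 7.40 on the non-Tg array. The difference of -2.02 (4.06-fold lower in Tg) was the widest among the snoRNA probe sets, and its Tg level lay just under the Tg filter value of 5.43. Rbmx, which encodes an RNA-binding protein of splicing, was measured at 6.56 in Tg and 6.62 in non-Tg, a difference of -0.06. The snoRNA probe set was thus apart where its host was not. The other X-linked snoRNAs measured, Snora69 and Snora70, were both dim, with Tg levels of 4.49 and 4.99 and non-Tg levels of 4.49 and 5.04.

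Snora3, an H/ACA snoRNA of the ribosomal protein gene Rpl27a, was read by 2 probe sets. The first was at 6.53 in Tg and at 7.82 in non-Tg, a difference of -1.29 (2.45-fold lower in Tg). The second also had 6.53 in Tg, with 7.85 in non-Tg, a difference of -1.33 (2.51-fold lower in Tg). Their values lay within 0.05 of each other on each array, so they may read the same sequence. Both are counted in the numbers of probe sets above, and as 1 in the number of genes. Rpl27a had levels of 11.9 on both arrays and a difference of 0.05.

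Snord15b, a C/D snoRNA of the small-subunit ribosomal protein gene Rps3, had a level of 7.10 in Tg and 5.61 in non-Tg. The difference of 1.49 made it 2.81-fold higher in Tg. Rps3 had levels of 9.63 and 9.60, a difference of 0.02. Snord15a, the related snoRNA of the same host, was under the floor on both arrays, at 4.49 in Tg and 4.57 in non-Tg.

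Snord104, a C/D snoRNA that lies within the long noncoding RNA gene Gm36220, had a level of 9.09 in Tg and 8.00 in non-Tg. Its difference of 1.09 (2.14-fold higher in Tg) was the smallest that passed the 2-fold line. Gm36220 had no single-symbol probe set, so host and snoRNA could not be set side by side. Snora31, of the Tpt1 gene for a translationally controlled tumour protein, lay just outside the line, with 6.94 in Tg, 6.00 in non-Tg and a difference of 0.94.

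**Figure D2:**
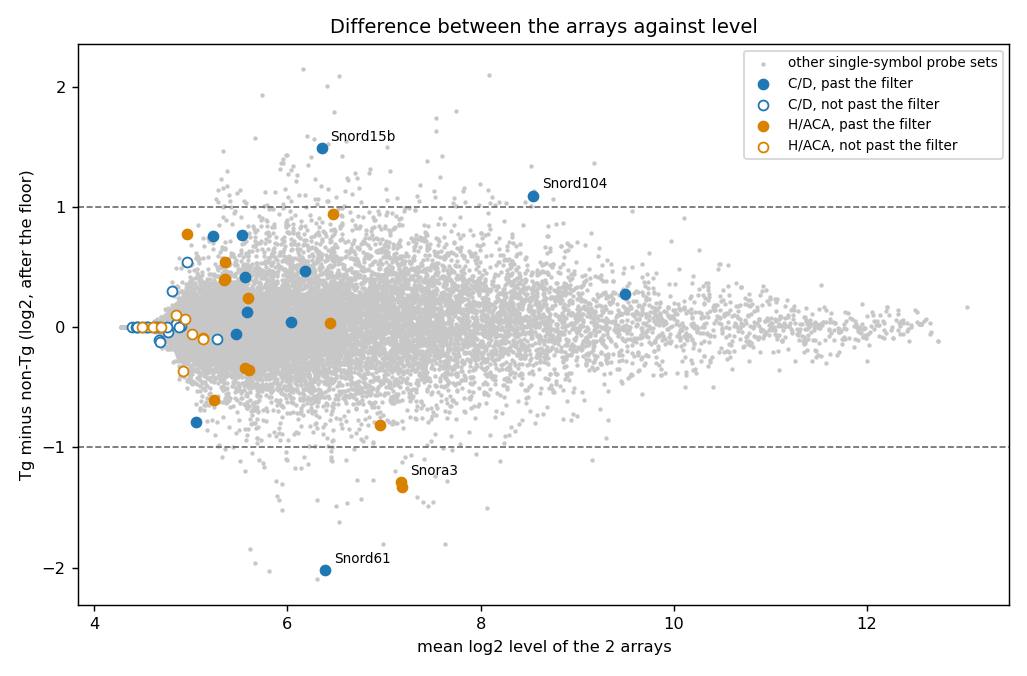
Tg minus non-Tg log2 difference after the floor (y axis) against the mean log2 level of both arrays (x axis) for all single-symbol probe sets, with the C/D and H/ACA probe sets in colour and those not past the filter as open circles. Dashed lines mark 2-fold. Snord15b and Snord104 lie above the upper line, Snord61 and both probe sets of Snora3 below the lower line.

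The classes were compared in level as a description only, since the brightness of a probe set also depends on its sequence. The 33 C/D probe sets had a median level of 4.85, with quartiles of 4.63 and 5.52, and the 23 H/ACA probe sets 5.24, with quartiles of 4.93 and 5.60. The median over all single-symbol probe sets was 5.58. The order of the classes turned round among probe sets past the filter, with 5.81 for C/D and 5.60 for H/ACA, and with the filter at the 75th percentile, with 7.47 and 7.07. Of the C/D probe sets, 12 of 33 (36.4%) passed the filter, against 13 of 23 (56.5%) of the H/ACA probe sets and 57.5% of all. Both values lay under the floor for 12 C/D and 4 H/ACA probe sets. The highest C/D level, that of Snord14e, was 9.63 in Tg, and the highest H/ACA level, that of Snora3, was 7.85 in non-Tg.

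The median difference between the arrays was 0 for the C/D and 0 for the H/ACA probe sets, as it was over all single-symbol probe sets, and the floor sets many of these values to 0. Over the probe sets past the filter alone it was 0.35 for C/D and 0.04 for H/ACA, and with the filter at the 75th percentile, which left 4 of each class, 0.69 and -1.05. Above 0 lay 13 C/D probe sets and below 0 lay 7, with 13 at 0. The H/ACA class had 9 above, 10 below and 4 at 0. Quartiles of the difference were 0 and 0.28 for C/D and -0.35 and 0.17 for H/ACA. Among the 12 C/D probe sets past the filter, 2 were 2-fold higher and 1 was lower, and among the 13 H/ACA probe sets 0 were higher and 2 lower, the latter both of Snora3. Over all single-symbol probe sets past the filter, 0.885% were higher and 0.479% lower. On 1 array only, 5 of these C/D and 7 of these H/ACA probe sets had passed. Whether the classes differ could not be tested with 1 array per group.

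The differences of the snoRNA probe sets spread widely in both directions. Past the filter, the SD of the difference was 0.831 over the 25 snoRNA probe sets and 0.337 over all single-symbol ones. The median size of the difference with its sign removed was 0.539 for the snoRNAs and 0.186 for all. Probe sets of microRNA genes, another type of short RNA on the array, had an SD of 0.356 and a median size of 0.177 over 67 past the filter, with 2 of them 2-fold apart. Long noncoding RNA genes had 0.436 and 0.212 over 233, with 10 apart. With the filter on the mean of both arrays the SD was 0.903 for snoRNAs and 0.334 for all. These figures describe 2 arrays. The number of probes behind each probe set was not analysed here, and its part in the spread was not tested.

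**Figure D3:**
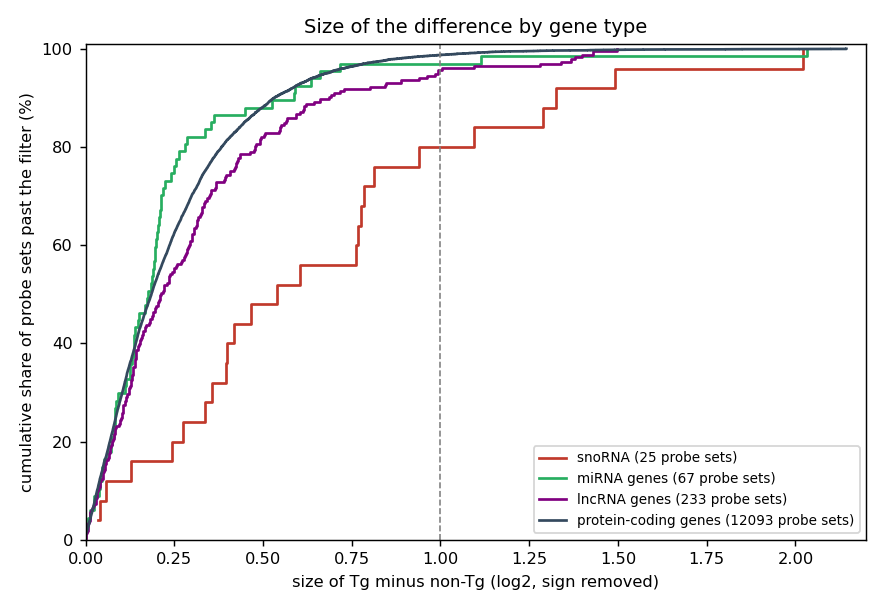
Cumulative share of probe sets past the filter (y axis, %) by the size of the Tg minus non-Tg log2 difference with its sign removed (x axis), for snoRNA probe sets and for probe sets of microRNA, long noncoding RNA and protein-coding genes. The dashed line marks 2-fold, and the snoRNA curve lies to the right of the others, with 5 of 25 probe sets beyond the line.

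Of the 51 snoRNA genes, 50 lay within the span of a host gene, and these hosts numbered 40. A host level was available for 30 snoRNA probe sets of 27 genes and 23 hosts. Hosts without a value were mostly noncoding, where 1 of 13 snoRNA probe sets had one. All 23 of these hosts passed the filter and 0 were 2-fold apart, where 1.17% of all genes past the filter, each at its brightest probe set, were. Host differences ranged from -0.31 to 0.40, snoRNA minus host from -1.96 to 1.47, with a median of 0.05. Most hosts were read at higher levels than their snoRNAs, and the part of level in these comparisons was not tested. Over the 15 pairs whose snoRNA passed the filter, the snoRNA had the wider difference in 14, and 9 differed from the host by at least 0.5. Of these 15, 7 passed on 1 array only, which favours a wide difference, and 4 of those 7 were among the 9. Of the 8 that passed on both arrays, 8 had the wider difference and 5 differed from the host by at least 0.5. Across these 15 pairs, which share the same 2 arrays and include 2 snoRNAs with 2 probe sets each, the Pearson coefficient between snoRNA and host differences was 0.14 and the Spearman coefficient -0.09. Over the 8 that passed on both arrays the coefficients were -0.63 and -0.75, where host differences ran only from -0.06 to 0.08. Over the 7 that passed on 1 array they were 0.34 and -0.13. So few pairs of 1 pair of arrays do not settle a relation.

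**Figure D4:**
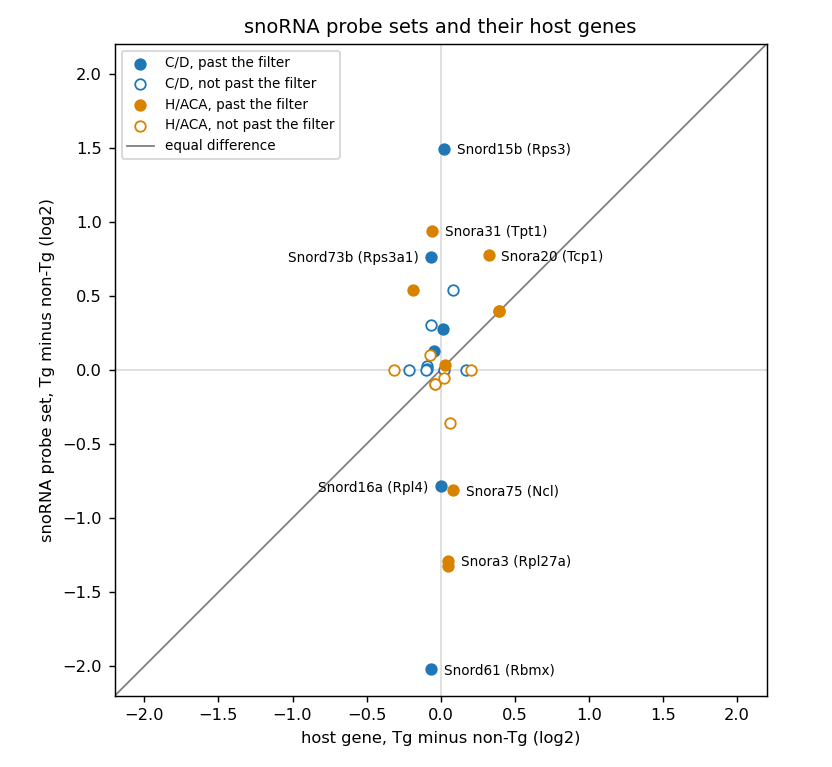
Tg minus non-Tg log2 difference of each snoRNA probe set (y axis) against that of its host gene at its brightest probe set (x axis), for the 30 probe sets with a measured host, where open circles did not pass the filter. Host values stay between -0.31 and 0.40, whereas snoRNA values run from -2.02 to 1.49.

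Hosts that encode ribosomal proteins held 24 snoRNA probe sets of 21 genes, with 9 past the filter. Besides Snora3 and Snord15b, Snord73b of Rps3a1 was at 5.61 in Tg and at 4.85 in non-Tg, a difference of 0.76. Its neighbour in that host, Snord73a, did not pass the filter, at 5.10 in Tg and 4.52 in non-Tg. The floored difference of Snord73a, 0.30, was under the error SD of 0.317. The host had 11.4 on both arrays and a difference of -0.06.

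Snord16a of Rpl4 was higher on the other array, with 4.53 in Tg and 5.58 in non-Tg. Since its Tg value lay under the floor, the difference of -0.79 means at least 1.72-fold lower in Tg. Without the floor it was -1.06, past the 2-fold line. Rpl4 had 12.3 in Tg and a difference of 0.00.

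Snora7a of Rpl32 had 4.94 in Tg and 5.54 in non-Tg, a difference of -0.60. Snora52 of Rplp2 went the other way, with 5.62 and 5.08, a difference of 0.54, where Rplp2 had -0.19. Other members of these hosts lay within 0.05 between the arrays: Snora33 of Rps12 was at 6.46 in Tg against 6.42 in non-Tg, and Snord55 at 6.06 against 6.02. The ribosomal protein hosts measured had differences between -0.19 and 0.05, so the snoRNAs of this group spread more widely than their hosts in both directions. Most of these hosts were read at far higher levels than their snoRNAs, and the part of level in the spread was not tested.

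The remaining snoRNAs of ribosomal protein hosts did not pass the filter. Snora21 of Rpl23 had 5.08 in Tg and 5.17 in non-Tg with both of its probe sets. Snora62 of Rpsa had 4.90 in Tg and 4.79 in non-Tg. Snord42a and Snord42b of Rpl23a had Tg levels of 4.86 and 4.90 and non-Tg levels of 4.84 and 4.90. Snord33 and Snord35a of Rpl13a, from a group of snoRNAs known for a role in lipid stress, had Tg levels of 4.68 and 4.56 and non-Tg levels of 4.84 and 4.53. Under the floor on both arrays were also Snord35b, Snord38a and both probe sets of Snord58b of Rpl17. For those under the floor on both arrays a difference was not detectable.

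Noncoding host genes held 13 snoRNA probe sets, of which 8 passed the filter and 1, Snord104, was 2-fold apart. Of all single-symbol probe sets past the filter, 1.36% were 2-fold apart. Snord49b had 6.42 in Tg and 5.95 in non-Tg, a difference of 0.47, and Snord49a of the same host was under the floor on both arrays. Snord22 of Snhg1, a C/D snoRNA needed to make the small-subunit ribosomal RNA, had 5.77 in Tg and 5.36 in non-Tg. Snora44 of Snhg12 had 5.72 and 5.47.

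Snora73a and Snora73b of Snhg3, near-identical H/ACA RNAs that take part in cleavage of the small-subunit precursor, went the other way together. Snora73a was at 5.39 in Tg against 5.73 in non-Tg, and Snora73b at 5.42 against 5.78, with differences of -0.34 and -0.36. As near copies they may share signal. Snord47 of Gas5, a noncoding gene that serves as host to many C/D snoRNAs, had 5.65 in Tg and 5.52 in non-Tg, where Gas5 had 12.6 and 12.7.

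Snord8, within Gm26590 and Chd8, had 5.44 in Tg and 5.50 in non-Tg. Snora74a of Snhg4 had 4.98 and 4.91 and did not pass the filter. Snord52, Snord87 of Snhg6 and Snora16a of Snhg12 were under the floor on both arrays. Of the noncoding host genes named Snhg or Gas5 that had a single-symbol probe set, 6 in all, 4 passed the filter and 0 were 2-fold apart. They were Snhg5, Snhg11, Snhg15, Snhg16, Snhg17 and Gas5, and only Gas5 is a host of a snoRNA reported here. The hosts Snhg1, Snhg3, Snhg4, Snhg6 and Snhg12 had no single-symbol probe set. Their differences ran from -0.37 for Snhg16 to -0.04 for Gas5, so all 6 were below 0, with a median of -0.13. Probe sets of long noncoding RNA genes past the filter also lay more often below 0, 145 against 86 above, with a median of -0.09. Over all genes at their brightest probe set, 1.17% of those past the filter were 2-fold apart.

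Other protein-coding hosts held 17 probe sets, 8 of them past the filter. The host Ncl, which encodes the nucleolar protein nucleolin, holds a snoRNA of each class. Snora75, the H/ACA member, had 6.55 in Tg and 7.37 in non-Tg, a difference of -0.81, and Snord82, the C/D member, had 5.34 in Tg and 4.57 in non-Tg, at least 0.54 higher in Tg on the log2 scale. The members of this host thus lay in opposite directions, and Ncl had 11.2 in Tg and a difference of 0.08. Snord82 did not pass the filter.

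Snord95 of Rack1, a scaffold protein of the ribosome, had 5.91 in Tg and 5.14 in non-Tg, a difference of 0.77, while Snord96a of the same host had 5.23 and 5.32. Snora20 of the chaperonin gene Tcp1 had 5.57 in Tg and 4.34 in non-Tg. Its non-Tg value was under the floor, so the difference of 0.77 means at least 1.71-fold higher in Tg, and without the floor it was 1.23. Tcp1 had a difference of 0.33 in the same direction.

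Snora30 of Srcap, a chromatin remodeller, had 5.55 in Tg and 5.15 in non-Tg at its first probe set. The second gave 5.54 and 5.14, and Srcap had the same difference as its snoRNA, 0.40. Snord14e of the chaperone gene Hspa8, a C/D snoRNA of a family that takes part in small-subunit processing, had 9.63 in Tg and 9.35 in non-Tg, where Hspa8 had a difference of 0.01.

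Snora41 of Eef1b2 did not pass the filter, at 4.68 in Tg and 5.16 in non-Tg. Snord57 of Nop56, a host that itself encodes a C/D core protein, had 4.88 on both arrays. Under the floor on both arrays were Snord37 of Eef2, Snord53 of Wdr43, Snord85, Snora23 of Ipo7 and Snora2b of Kansl2. Snord118, needed for maturation of the large-subunit ribosomal RNAs and transcribed from its own promoter, was the member with no holding gene. Its probe sets had 4.43 and 4.44 in Tg and 4.91 and 4.92 in non-Tg, and neither passed the filter.

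Counted by host, 10 hosts held 2 measured snoRNA genes each, and 0 held 3 or more. The gap between the differences of both snoRNAs of a host ran from 0.02 for Rpl23a and for Snhg3 to 1.35 for Ncl and 1.49 for Rps3. Snhg3 was the one host whose snoRNAs both passed the filter. For the other 9 hosts, at least one of the snoRNAs did not pass the filter, so most of these gaps rest on a dim probe set.

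Genes for the proteins that bind and assemble snoRNAs lay within 2-fold between the arrays. Of the 4 C/D core proteins, 4 passed the filter and 0 were 2-fold apart, against the background of 1.17%. Fibrillarin (Fbl), the methyltransferase, was at 9.49 in Tg against 9.26 in non-Tg. The scaffold genes Nop56 and Nop58 had differences of -0.21 and 0.02. Snu13, which binds the kink turn of the C/D RNA, had -0.24. The list median was -0.10.

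The 4 H/ACA core genes also passed the filter with 0 beyond 2-fold, against the background of 1.17%, and a median of 0.03. Dyskerin (Dkc1), the pseudouridine synthase, had 6.73 in Tg and 6.89 in non-Tg. Nop10 had a difference of 0.22, Nhp2 of 0.45 and Gar1 of -0.17.

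Of 10 assembly genes, 10 passed the filter, 0 were 2-fold apart, against the background of 1.17%, and the median was 0.06. Naf1, the H/ACA assembly factor that Gar1 later replaces, had the highest difference, 0.56 (6.28 in Tg and 5.72 in non-Tg), and Shq1, the chaperone of dyskerin, had 0.31. The AAA ATPase genes Ruvbl1 and Ruvbl2 had 0.06 and -0.04, and Nolc1, a nucleolar and Cajal body phosphoprotein, 0.15. Znhit6, Nufip1 and Pih1d1 of the C/D assembly machinery had 0.02, 0.06 and 0.14, and Znhit3 and Rpap3 had -0.24 and -0.31. Rrp9, Utp14a and Wdr43, of the machinery that makes the small subunit, had 0.01, 0.14 and -0.10.

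The small Cajal body RNAs, guide RNAs for spliceosomal RNA and the closest relatives of snoRNAs on the array, had 3 genes measured. Scarna17, at the brighter of its 2 probe sets, had 9.17 in Tg and 8.50 in non-Tg, a difference of 0.67 (1.60-fold higher in Tg). Scarna13 had 5.22 and 5.47, and Scarna8 was under the floor on both arrays. Of the 3, 2 passed the filter and 0 were 2-fold apart, against the background of 1.17%.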

How the data were processed

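The deposited table holds 28856 probe sets with a value for each array. The deposited values were taken as log2, a scale inferred from their range (4.22 to 13.7). Not given in the sources used here were the authors' background correction, normalization and summary method. Gene symbols came from GEO's platform annotation; 1621 probe sets with several symbols and 5446 with none entered no count. The arrays had no replicates, so their number limits the precision. Each probe set was kept as its own feature, and background counts used the same rule.

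A host was the shortest gene, small RNA genes left out, whose RefSeq span (GRCm38.p6) holds the snoRNA gene. The design had asked for the same strand, but the strand of the snoRNA genes was not in the table, so strand was not checked. A host, or a gene of the marker, protein and small Cajal body RNA lists, with several probe sets was taken at its brightest. Some host genes are not reported here. Every snoRNA probe set was accounted for, and the rule for naming took those beyond 2-fold, the highest and lowest of each class past the filter, genes with several probe sets, and hosts. The rule's entry for hosts with 3 or more snoRNAs found none. Members and lists were chosen with earlier results of these data known.

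Alternatives changed the floor, the filter, the scaling, the fold and the handling of several probe sets. Calls were tested on simulated data. Python 3.11.15 was used with numpy 2.4.6, pandas 2.3.3, scipy 1.17.1 and matplotlib 3.10.9.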

Additional observations from a re-analysis of the deposited data

Results flagged for a closer look

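A probe set annotated to both Snord7 and the noncoding gene AI450353 was outside the comparisons because it carries several symbols. It had a level of 5.93 on the Tg array and 4.91 on the non-Tg array, a log2 difference of 1.02 (2.03-fold), which is above the level in the control array by the 2-fold rule. Its non-Tg level lay under the filter value of 5.45, so it passed on the Tg array only. Of 41 probe sets annotated to a snoRNA and another gene, 5 passed the filter, 1 was 2-fold higher and 0 lower. Among single-symbol probe sets past the filter, 0.885% were higher. The Snord7 probe set has no replicate check, and which of its annotated genes gave the signal was not tested.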

How the results depend on the processing

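The counts of 2 snoRNA probe sets higher and 3 lower were recomputed under each alternative. At 1.5-fold they were 6 and 6. Without a floor, or with the floor at the 10th percentile, they were 3 and 4, with Snora20 (1.23 without a floor) and Snord16a (-1.06) added. With 1 value per gene, Snora3 counted once and they were 2 and 2. Snord61, Snora3, Snord15b and Snord104 kept their direction and stayed beyond 2-fold under both scaling alternatives. Their values all lay above the floor, so the floor alternatives could not change them. The medians moved with the filter, where few probe sets remain. With only probe sets past the main filter, chosen after seeing the data, the median difference was 0.35 for C/D and 0.04 for H/ACA, and the median levels were 5.81 for C/D and 5.60 for H/ACA. With the filter at the 75th percentile, which left 4 probe sets in each class, the median difference was 0.69 for C/D and -1.05 for H/ACA, the median levels 7.47 and 7.07, and the median of snoRNA minus host -0.90. That filter keeps bright probe sets, so these medians describe other members than the main ones. No paired analysis was possible because each group has 1 array. Levels near the lower end of the scale limit what could be seen in the 16 snoRNA probe sets under the floor on both arrays.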

Other observations

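Probe sets annotated to a snoRNA together with another gene numbered 41, and 5 of them passed the filter. Of these, 24 belonged to the Snord116 family, C/D RNAs of an imprinted gene cluster known for high levels in brain. All 24 were under the floor on both arrays, with levels from 4.35 to 4.43 in Tg and from 4.38 to 4.50 in non-Tg. A probe set annotated to Snord14c, Snord14d and Hspa8 was at 8.59 in Tg against 8.98 in non-Tg, and a second with the same annotation at 8.59 against 8.99. Their log2 differences of -0.39 and -0.40 were below 0, whereas Snord14e of the same host gene had 0.28. A probe set annotated to Snora43 and Snhg7 was at 6.02 in Tg against 5.54 in non-Tg, and one annotated to Snora24 and Snhg8 at 5.63 against 5.89.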
